A study of Mus musculus with 24 samples.

Results

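Kidney libraries of mice given CBLB502 before cisplatin, called the combination here, were compared with those of mice given cisplatin alone. The comparison takes 6 of the 24 RNA libraries of the series, 3 of each group. Combination mice (C57BL/6) received CBLB502 at 0.2 mg/kg 30 min before cisplatin at 20 mg/kg, and cisplatin mice received 20 mg/kg of cisplatin, both by intraperitoneal injection, with kidneys taken at 72 h. Kidneys of mice given CBLB502 alone at 0.2 mg/kg (72 h) and of untreated mice, 3 libraries each, served as context, as did the same groups in liver. All groups are whole-organ RNA of the same strain, so fewer cells of a type and less RNA per cell cannot be told apart. Whether the 3 libraries of a group stem from 3 different mice is not stated in the labels, and the p-values therefore reflect library-to-library spread, part of which may be technical. The series title names protection by a TLR5 agonist as its subject. The comparison asks which kidney transcripts differ when CBLB502 precedes cisplatin.

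Cisplatin is a platinum drug that crosslinks DNA. In the kidney it is taken up mainly by proximal tubule cells, where it is known to activate p53, to damage mitochondria and to cause acute tubular injury with inflammation. CBLB502 (entolimod) is a flagellin-derived protein that activates TLR5, a receptor that signals through MyD88 to NF-kB. Injured tubule cells are known to lose transporters and to express injury genes such as Havcr1 and Lcn2.

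The 3 cisplatin libraries were unlike each other. Cisplatin libraries 4 and 5 lay 1.55 apart on the log2 scale (root-mean-square distance over the 500 most different genes of each pair), while library 6 lay 3.32 from library 4 and 3.22 from library 5. Library 6 was nearer to the combination libraries (1.70 to 1.97), which lay 1.33 to 1.70 from each other, than libraries 4 and 5 were (2.64 to 2.79). Depth was 70.48 to 76.5 M counts in the combination and 70.1 to 77.1 M counts with cisplatin alone. Mitochondrially encoded genes took 7.49% to 7.80% of counts in the combination and 6.32% to 10.3% with cisplatin alone, highest in library 6. Untreated controls stood apart with 60.7% to 69%, and they entered the 12-library fit behind the main p-values, where all 4 kidney groups share 1 estimate of spread. Their levels are given as context. Kidney markers such as Umod, Slc34a1 and Aqp2 were present in all 6 libraries. Cisplatin library 6 lay away from libraries 4 and 5, near the combination or beyond it, in most injury and p53 genes. Whether it was dosed and labelled like libraries 4 and 5 was not tested, so each cisplatin mean and fold change below holds for the libraries as labelled. Library 6 was singled out after its values were seen, and results without it describe the other libraries and are not independent evidence.

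Noct was the gene that rose in the combination. Noct encodes nocturnin, an NADP(H) phosphatase related to the CCR4 deadenylases, whose RNA is known to cycle over the day in mouse tissues. It stood at 148, 88.2 and 105 CPM in combination libraries 4, 5 and 6, against 24.8, 25.7 and 28.7 CPM in cisplatin libraries 4, 5 and 6. The lowest combination library was above every cisplatin library, and cisplatin library 6 did not stand apart from libraries 4 and 5. Noct averaged 114 ± 30.9 CPM in combination libraries and 26.4 ± 2.08 CPM in cisplatin libraries (SD, n = 3 each), and 12.2 CPM after CBLB502 alone and 12.5 CPM in untreated controls. The ratio of the group means was 4.31-fold, and the log2 fold change was 2.11 ± 0.20 (SE; edgeR quasi-likelihood test, adjusted p = 0.00486). It was 1 of 20341 tested genes past the threshold of 0.05 (0.00492% of them), and 0 genes passed in the lower direction. At an unadjusted p under 0.05 there were 987 higher genes (4.85%) and 1627 lower genes (8%). DESeq2 called 178 higher (1.28%) and 445 lower (3.19%) of the 13939 genes to which it gave an adjusted p. Without cisplatin library 6, edgeR called 2516 higher genes (12%) and 2163 lower genes (10.3%) of 20954. Without cisplatin library 4 or without library 5 it called 0, with Noct at an adjusted p of 0.0658 and 0.0607. The call was also lost with the 9 treated kidney libraries (adjusted p = 0.0643) and with the 6 compared libraries alone (adjusted p = 0.567). The Noct log2 fold change lay between 1.87 and 2.26 over every alternative run.

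Noct lies on the plus strand of chromosome 3 (chr3:51224447-51251644, ENSMUSG00000023087, coordinates as deposited, which match the mouse build GRCm38). Its promoter is shown beside that of Ciart, a repressor of the clock. Ciart did not pass the threshold, was low, and was picked after its values were seen. Both sequences are from RefSeq (GRCm38.p6) and run from 250 bases before the gene's start to 50 bases after it, on the gene's own strand. Capitals mark matches, on both strands, to the E-box CACGTG, the element of the CLOCK-ARNTL activator, and to TTATGNAA, where N is any base. The latter is used here as a broad pattern for the D-box, the element of the DBP, TEF and HLF factors.
Noct (chr3:51224197-51224496, plus strand): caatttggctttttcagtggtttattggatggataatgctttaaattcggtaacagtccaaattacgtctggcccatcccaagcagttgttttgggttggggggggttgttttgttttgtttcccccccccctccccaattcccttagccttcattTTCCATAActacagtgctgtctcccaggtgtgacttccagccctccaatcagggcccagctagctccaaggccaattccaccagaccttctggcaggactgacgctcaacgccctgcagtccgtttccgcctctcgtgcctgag
Ciart (chr3:95882179-95882478, minus strand): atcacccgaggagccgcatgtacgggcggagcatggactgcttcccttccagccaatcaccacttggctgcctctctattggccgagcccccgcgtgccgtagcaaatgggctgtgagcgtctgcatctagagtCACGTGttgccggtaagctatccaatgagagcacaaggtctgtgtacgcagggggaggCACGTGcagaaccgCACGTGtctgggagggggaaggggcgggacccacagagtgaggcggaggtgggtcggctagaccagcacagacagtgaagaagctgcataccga
The Noct window held 1 D-box match, on its reverse strand, and 0 E-box matches, and the Ciart window held 3 E-box matches and 0 D-box matches. Of all 32851 promoters of 300 bases in the table, 7.15% held the E-box letters and 3.38% the D-box letters. A match is a description of the letters and not a bound site.

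Among 22 clock genes tested, 6 had all 3 combination libraries above all 3 cisplatin libraries (27.3%, against 8.02% of all genes tested) and 1 had them all below (4.55%, against 5.75%). Noct itself is 1 of the 6. Ciart stood at 4.27, 4.72 and 4.12 CPM in the combination, against 1.11, 0.696 and 0.9196 CPM with cisplatin alone, which is low but did not overlap (log2 fold change 2.26 ± 0.46, adjusted p = 0.229). Usp2, a deubiquitinase under clock control, stood at 93.04, 78.1 and 85.9 CPM in the combination, against 29.4, 29.3 and 66.9 CPM with cisplatin alone, and Tef, a D-box factor, at 188, 168 and 189.9 CPM in the combination, against 52.4, 61.1 and 158 CPM with cisplatin alone. In both genes library 6 lay nearer to the combination than libraries 4 and 5 did. Per2, a core repressor, stood at 21.7, 20.5 and 22.7 CPM in the combination, against 11.4, 10.7 and 16.4 CPM with cisplatin alone, and Dbp, another D-box factor, at 22.7, 21.8 and 22.5 CPM in the combination, against 20.2, 20.9 and 16.1 CPM with cisplatin alone. The member that was lower in every combination library was Arntl, the activator's subunit, at 2.17, 3.75 and 3.07 CPM in the combination, against 4.94, 4.54 and 5.35 CPM with cisplatin alone (adjusted p = 0.277). Nr1d1, the repressor of Arntl, overlapped between the groups at 12.8, 15.9 and 11.3 CPM in the combination, against 21.9, 17.9 and 13.8 CPM with cisplatin alone. The median log2 fold change over the 22 genes was 0.00, as it was over all genes tested. At an unadjusted edgeR p under 0.05, 4 were higher (against 4.85% of all genes) and 3 lower (against 8%). Without library 6, 6 were called higher (against 12%) and 4 lower (against 10.3%). Cisplatin libraries 4 and 5 were both above the combination in 9 clock genes and both below it in 8, so the list was mixed. Over all 20341 genes these counts were 4956 and 5789. The labels give no time of day for collection, and its part in these values was not tested. These genes, and the other list members named with values here beside the rule in the processing notes, were picked after their values were seen.

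**Figure D1:**
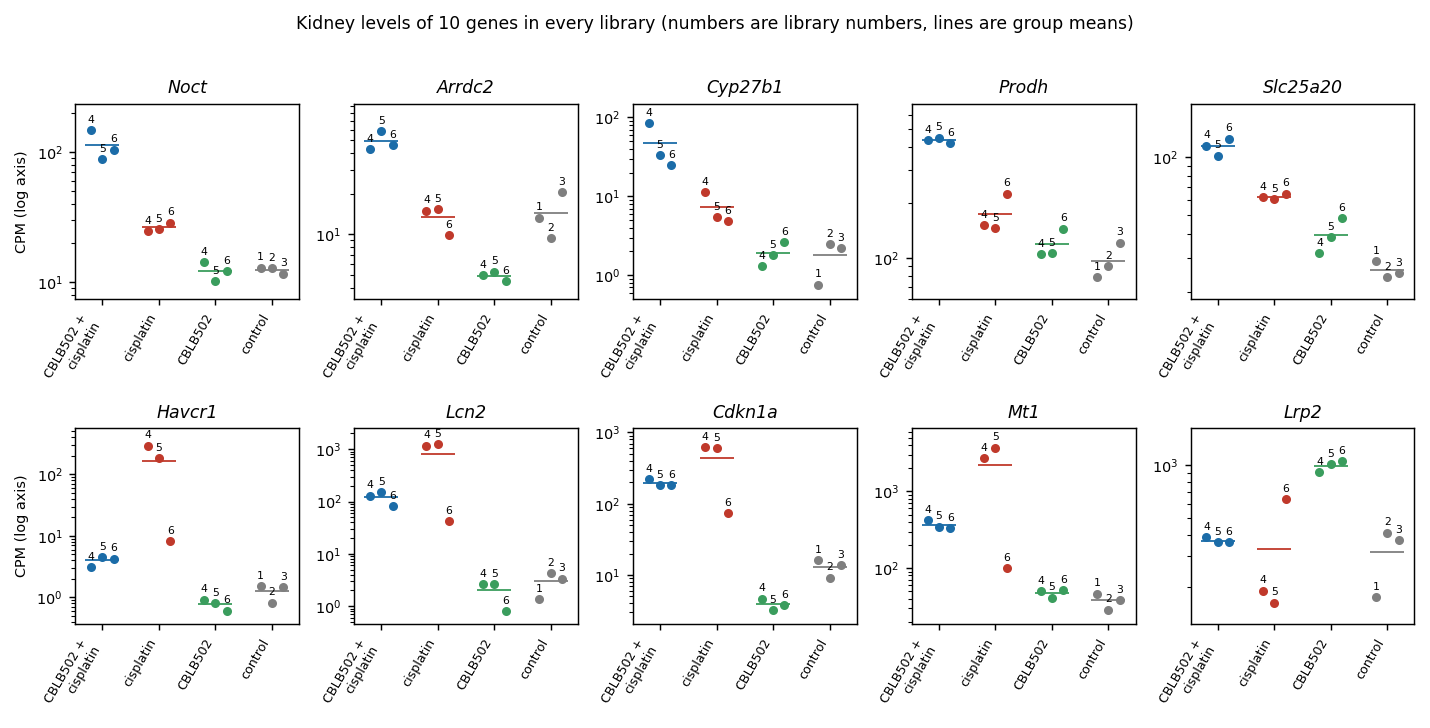
Levels of 10 genes in each kidney library, in counts per M (CPM) on a log axis. Points are single libraries with their library number, short lines are group means, and groups run from the combination through cisplatin and CBLB502 alone to untreated controls. In the upper row, from Noct to Slc25a20, all 3 cisplatin libraries lie below the combination. In the lower row cisplatin libraries 4 and 5 lie away from the combination, while library 6 lies near it or on its other side.

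No other gene rose at the threshold. The next 11 higher and 12 lower genes are described by their values, and are those with the lowest p among genes with non-overlapping groups and at least 5 CPM in the higher group. Their adjusted p ran from 0.171 to 0.229, and each of the 23 passed the test once cisplatin library 6 was left out. For the list counts below, the shares over all genes were 4.85% higher and 8% lower at an unadjusted edgeR p under 0.05. They were 1.28% higher and 3.19% lower by DESeq2, and 12% higher and 10.3% lower by edgeR without library 6.

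Several of the 11 higher genes serve mitochondria and fuel use. Prodh, the enzyme that starts proline breakdown, stood at 437, 452 and 423 CPM in combination libraries 4, 5 and 6, against 151, 146 and 224 CPM in cisplatin libraries 4, 5 and 6. The combination libraries were tight, and library 6 was the highest of the cisplatin libraries (log2 fold change 1.33 ± 0.22, adjusted p = 0.216). Slc25a20, the carnitine-acylcarnitine carrier that brings fatty acids into mitochondria, stood at 114, 102 and 124 CPM in the combination, against 62.05, 60.1 and 64.5 CPM with cisplatin alone. All 3 cisplatin libraries sat within a few CPM of each other (log2 fold change 0.87 ± 0.16, adjusted p = 0.229). Acot1, a cytosolic acyl-CoA thioesterase, stood at 214, 204 and 279.8 CPM in the combination, against 96.1, 91.9 and 107 CPM with cisplatin alone. Acot1 has near-identical neighbours, so reads could be split between copies and its level is uncertain. Mtarc2, a molybdenum enzyme of the outer mitochondrial membrane, stood at 298, 321 and 321 CPM in the combination, against 185, 188 and 189 CPM with cisplatin alone, and Hibch, an enzyme of valine breakdown, at 65.4, 69.8 and 70.5 CPM in the combination, against 43.8, 43.7 and 47.5 CPM with cisplatin alone. These were the smallest differences of the set and among the tightest (log2 fold change 0.74 ± 0.14 for Mtarc2 and 0.61 ± 0.12 for Hibch).

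Among 30 genes of fatty acid oxidation, 10 had all combination libraries above all cisplatin libraries (33.3%, against 8.02% of all genes tested) and 0 had them all below. Cpt1a, which makes acylcarnitines at the outer mitochondrial membrane, stood at 304, 239 and 295 CPM in the combination, against 194, 149.7 and 209.6 CPM with cisplatin alone, and Cpt2, which releases them inside, at 210.5, 164 and 194 CPM in the combination, against 104, 112 and 128 CPM with cisplatin alone. In both genes cisplatin library 6 lay with libraries 4 and 5. The microsomal fatty acid hydroxylase Cyp4a14 stood at 1224, 1263 and 1699 CPM in the combination, against 716, 1034 and 576 CPM with cisplatin alone. Its adjusted p was 0.422. By edgeR 0 of the 30 passed the threshold, 9 were higher and 2 lower at an unadjusted p under 0.05, 4 were called higher by DESeq2, and the median log2 fold change was 0.42. Without library 6, 10 were called higher (against 12% of all genes) and 4 lower (against 10.3%). Libraries 4 and 5 were both below the combination in 16 members, against 5789 of all 20341 genes tested. They were both above it in 5, against 4956, and in these 5 library 6 was below it. The list's summed level overlapped, at 8909, 8593 and 10460 CPM in the combination, against 10750, 10340 and 5639 CPM with cisplatin alone.

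Nuclear genes of the respiratory chain lay within a narrow range, and 0 were called. Of 29 tested, 11 had all combination libraries above all cisplatin libraries (37.9%, against 8.02% of all genes tested) and 0 had them all below. Sdhb, the iron-sulfur subunit of succinate dehydrogenase, stood at 458, 523 and 482 CPM in the combination, against 365, 424 and 378 CPM with cisplatin alone, and Ndufa9, a subunit of complex I, at 234, 237 and 242 CPM in the combination, against 185, 217 and 187 CPM with cisplatin alone. The gap between the groups was small beside the level (log2 fold change 0.33 ± 0.14 for Sdhb and 0.27 ± 0.14 for Ndufa9), and 0 of 29 passed the threshold by edgeR or by DESeq2, with 1 higher at an unadjusted p under 0.05. The median was 0.18, and 2 were called higher without library 6 (against 12% of all genes). Of the 13 mitochondrially encoded genes tested, 0 had the combination above and 1, mt-Co3, had it below in every library (7.69%, close to the 5.75% of all genes tested). By edgeR or DESeq2 0 were called, and 0 passed an unadjusted p of 0.05.

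In the fasting and glucocorticoid list 8 of 23 genes had all combination libraries above all cisplatin libraries (34.8%, against 8.02% of all genes tested), and 0 had them all below. Pck1, the rate-limiting enzyme of gluconeogenesis, stood at 6174, 4981 and 5790 CPM in combination libraries 4, 5 and 6, against 2501, 1815 and 2657 CPM in cisplatin libraries 4, 5 and 6. It was among the most abundant transcripts of the list, and the 2 groups were far from overlapping (log2 fold change 1.28 ± 0.28, adjusted p = 0.229). Tsc22d3, the glucocorticoid-induced leucine zipper gene, stood at 89.9, 70.7 and 83.7 CPM in the combination, against 19.6, 28.9 and 57.01 CPM with cisplatin alone, and Sgk1, a kinase that promotes sodium reabsorption, at 222, 161 and 262 CPM in the combination, against 88.4, 115 and 140.2 CPM with cisplatin alone. Klf15, a transcription factor of amino acid breakdown, stood at 105, 92.3 and 93.7 CPM in the combination, against 23.9, 17.9 and 76.3 CPM with cisplatin alone. Other members of the same list went the other way in cisplatin libraries 4 and 5. Pdk4, which blocks entry of pyruvate into oxidation, stood at 77.6, 117 and 186 CPM in the combination, against 757, 563 and 55.9 CPM with cisplatin alone, and Fkbp5, a glucocorticoid-induced chaperone, at 309.8, 305 and 276 CPM in the combination, against 404, 385 and 85.5 CPM with cisplatin alone. In both genes library 6 was lower than every combination library. Libraries 4 and 5 were both above the combination in 9 members, and library 6 was below it in all 9. Over all genes tested library 6 was below in 2326 of 4956 such genes. By edgeR 0 were called, with 7 higher and 4 lower at an unadjusted p under 0.05 and 4 higher by DESeq2. The list's median log2 fold change was -0.16, so its count and its median differ in sign.

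Vitamin D synthesis gave the largest log2 fold change among the 11 higher genes. Cyp27b1, the renal enzyme that makes active vitamin D (chr10:127048250-127053006), stood at 84.1, 32.9 and 24.96 CPM in combination libraries 4, 5 and 6, against 11.4, 5.44 and 4.81 CPM in cisplatin libraries 4, 5 and 6. The combination libraries spread over a wide range, yet the lowest was above the highest cisplatin library (log2 fold change 2.71 ± 0.53, adjusted p = 0.229). CBLB502 alone averaged 1.902 CPM and untreated controls 1.801 CPM. Cyp24a1, which breaks active vitamin D down, stood at 77.1, 83.1 and 127 CPM in the combination, against 39.8, 54.8 and 36.2 CPM with cisplatin alone (adjusted p = 0.416). Vdr, the vitamin D receptor, overlapped at 99.4, 84.1 and 123 CPM in the combination, against 184, 133 and 121 CPM with cisplatin alone. Slc34a1, the main phosphate transporter of the proximal tubule, overlapped too, at 1386, 1153 and 1246 CPM in the combination, against 469, 375 and 2057 CPM with cisplatin alone. Here library 6 was above and libraries 4 and 5 were below every combination library. Slc34a1 shares exon sequence with Pfn3, so its reads can be split.

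Other higher genes have other roles. Arrdc2, an alpha-arrestin that acts as an adaptor for ubiquitin ligases (chr8:70835129-70839720), stood at 42.7, 58.7 and 45.9 CPM in combination libraries 4, 5 and 6, against 14.9, 15.4 and 9.81 CPM in cisplatin libraries 4, 5 and 6. Library 6 was the lowest of the 6 libraries (log2 fold change 1.88 ± 0.27, adjusted p = 0.171), and CBLB502 alone averaged 4.91 CPM. Reep6, an endoplasmic reticulum protein known from rod photoreceptors, stood at 136, 84.1 and 104 CPM in the combination, against 45.5, 37.6 and 32.9 CPM with cisplatin alone, and Prob1 at 59.02, 54.5 and 55.8 CPM in the combination, against 28.7, 31.9 and 38.4 CPM with cisplatin alone. Cyp27a1, the mitochondrial sterol hydroxylase of bile acid synthesis, stood at 62.3, 78.6 and 74.7 CPM in the combination, against 43.5, 34.1 and 37.1 CPM with cisplatin alone.

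Among the 12 lower genes, Havcr1 had the largest log2 fold change in size. Havcr1 encodes kidney injury molecule KIM-1 of the proximal tubule (chr11:46735080-46779578). It stood at 3.15, 4.57 and 4.26 CPM in combination libraries 4, 5 and 6, against 294, 184 and 8.25 CPM in cisplatin libraries 4, 5 and 6. All combination libraries were below all cisplatin libraries, but library 6 was far closer to the combination than to libraries 4 and 5. The means were 3.99 ± 0.748 CPM in combination libraries and 162 ± 144 CPM in cisplatin libraries (SD, n = 3 each), the log2 fold change was -5.34 ± 0.92, and the adjusted p was 0.223. Without library 6 it was -5.90 ± 0.28 (adjusted p = 1.25e-06). CBLB502 alone averaged 0.7802 CPM and untreated controls 1.27 CPM.

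Further lower genes have various roles. Itgb6, the integrin beta subunit that activates latent TGF-beta, stood at 21.7, 24.6 and 25.9 CPM in combination libraries 4, 5 and 6, against 102, 98.9 and 41.1 CPM in cisplatin libraries 4, 5 and 6. Msn, moesin, which links actin to the membrane, stood at 41.9, 48.8 and 39.7 CPM in the combination, against 175, 146 and 69.4 CPM with cisplatin alone. Emp1, an epithelial membrane protein, stood at 7.73, 9.56 and 9.91 CPM in the combination, against 48.5, 25.2 and 14.04 CPM with cisplatin alone. In these 3 genes library 6 was above the combination and below libraries 4 and 5. Their log2 fold changes were -1.74 ± 0.34 for Itgb6, -1.58 ± 0.28 for Msn and -1.69 ± 0.36 for Emp1. Plat, tissue plasminogen activator, stood at 6.91, 12.2 and 9.16 CPM in the combination, against 41.4, 26.7 and 23.6 CPM with cisplatin alone, with library 6 close to library 5. Adgra3, an adhesion receptor, stood at 27.6, 27.7 and 25.9 CPM in the combination, against 68.1, 48.5 and 41.3 CPM with cisplatin alone, and Exoc6b, a subunit of the exocyst, at 6.12, 7.34 and 5.67 CPM in the combination, against 12.5, 11.6 and 10.1 CPM with cisplatin alone. Sirpa, a receptor for CD47 known from myeloid cells, stood at 21.9, 26.8 and 20.02 CPM in the combination, against 75.1, 84.2 and 30.3 CPM with cisplatin alone. Kcne4, an accessory subunit of potassium channels, stood at 0.262, 0.712 and 0.691 CPM in the combination, against 13.4, 10.5 and 1.43 CPM with cisplatin alone, near the detection limit in the combination. Fchsd1, an F-BAR protein, stood at 3.74, 2.87 and 2.94 CPM in the combination, against 13.4, 11.2 and 5.09 CPM with cisplatin alone, and it shares exon sequence with Rell2, so its reads can be split.

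The other 2 lower genes were Mcm6 and Irgm1, and for them library 6 did not stand apart. Mcm6, a subunit of the replicative helicase (chr1:128331590-128359664), stood at 6.04, 5.89 and 5.14 CPM in combination libraries 4, 5 and 6, against 12.9, 12.9 and 11.8 CPM in cisplatin libraries 4, 5 and 6. All cisplatin libraries lay close together (log2 fold change -1.14 ± 0.17, adjusted p = 0.171), near the level of CBLB502 alone (13.3 CPM) and untreated controls (10.3 CPM). Mcm3, of the same helicase, stood at 1.03, 0.875 and 1.03 CPM in the combination, against 1.56, 1.85 and 1.76 CPM with cisplatin alone. The replication list was not of one direction: Tyms, thymidylate synthase, stood at 23.5, 21.8 and 19.6 CPM in the combination, against 10.1, 13.8 and 11.6 CPM with cisplatin alone, with the combination above (log2 fold change 0.87 ± 0.19, adjusted p = 0.229). Top2a, a marker of dividing cells, was low and overlapped at 0.753, 0.275 and 0.192 CPM in the combination, against 0.336, 0.228 and 0.504 CPM with cisplatin alone, and its sign turned on single libraries. Of 31 cell cycle genes tested, 2 had all combination libraries above and 2 below (6.45% each), close to the 8.02% and 5.75% over all genes tested. By edgeR 0 were called, with 2 higher and 3 lower at an unadjusted p under 0.05, and DESeq2 called 2 in each direction. Irgm1, an interferon-induced GTPase, stood at 41.8, 32.6 and 38.98 CPM in combination libraries 4, 5 and 6, against 102, 64.5 and 91.8 CPM in cisplatin libraries 4, 5 and 6 (log2 fold change -1.19 ± 0.19, adjusted p = 0.19). Of 34 interferon-response genes, 5 had all combination libraries below all cisplatin libraries (14.7%, against 5.75% of all genes tested) and 0 above. They included Irf1, at 10.8, 18.2 and 11.4 CPM in the combination, against 30.2, 23.2 and 23.4 CPM with cisplatin alone, and Rsad2, the antiviral protein viperin, at 6.903, 4.49 and 6.83 CPM in the combination, against 20.2, 9.73 and 12.98 CPM with cisplatin alone. The interferon list was mixed. By edgeR 0 of 34 were called, with 0 higher and 5 lower at an unadjusted p under 0.05 and a median log2 fold change of -0.25. Without cisplatin library 6, 4 were called higher and 5 lower, with a median of 0.13. In 9 members cisplatin libraries 4 and 5 were below the combination, and library 6 was above it in 8 of these.

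**Figure D2:**
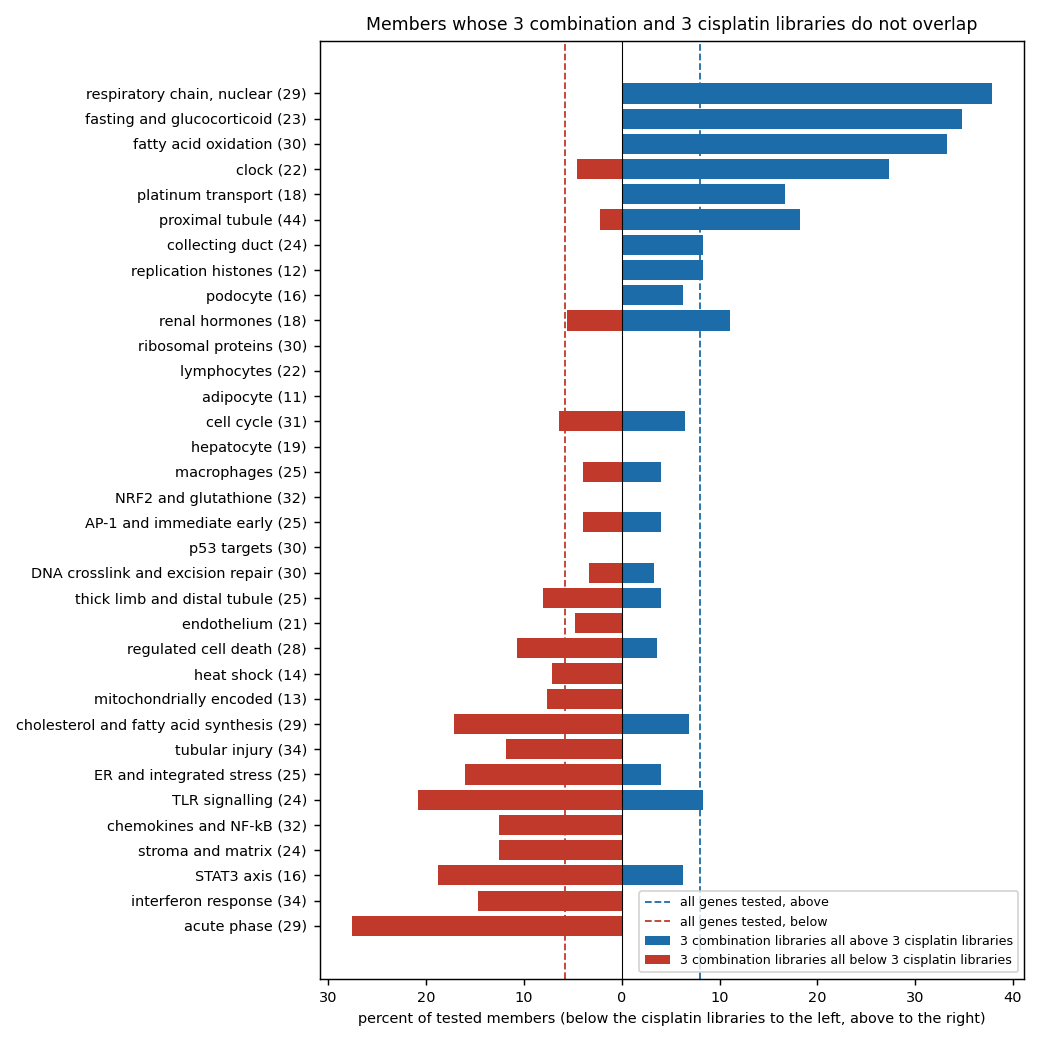
Share of each list's tested members whose 3 combination libraries lie all above (blue, to the right) or all below (red, to the left) the 3 cisplatin libraries, in percent, for lists with at least 10 tested members. Dashed lines are the shares over all genes tested, 8.02% above and 5.75% below. The longest bars to the right belong to the respiratory chain (37.9%) and fasting genes (34.8%), and the longest to the left to acute-phase genes (27.6%).

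Many known injury genes were split among the cisplatin libraries. Lcn2, the secreted injury marker NGAL, stood at 130.2, 150.1 and 82.98 CPM in combination libraries 4, 5 and 6, against 1166, 1235 and 42.9 CPM in cisplatin libraries 4, 5 and 6. Libraries 4 and 5 were far above the combination, and library 6 was below all of it (log2 fold change -2.75 ± 0.89, adjusted p = 0.259). Krt20, a keratin of injured tubule, stood at 12.9, 6.22 and 11.3 CPM in the combination, against 1564, 1098 and 4.74 CPM with cisplatin alone, and Spp1, osteopontin, at 1633, 2267 and 1795 CPM in the combination, against 14950, 13510 and 1408 CPM with cisplatin alone. In all 3 genes library 6 was the lowest of the 6 libraries. Of 34 tubular injury genes tested, 24 had cisplatin libraries 4 and 5 both above all combination libraries, against 4956 of all 20341 genes tested. In these 24, library 6 was also above in 4, inside the combination's range in 5 and below it in 15. Among the 4956 it was above in 1170, inside in 1460 and below in 2326. By edgeR 0 of 34 were called, with 0 higher and 16 lower at an unadjusted p under 0.05 and a median log2 fold change of -0.93. DESeq2 called 12 lower and 0 higher. Without library 6, 19 were called lower (against 10.3% of all genes) and 0 higher (against 12%), with a median of -1.27. Their summed level was 3610 to 4928 CPM in the combination, against 2998 to 30430 CPM with cisplatin alone.

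The same held for p53 targets. Cdkn1a, the p53-induced cell cycle inhibitor p21, stood at 222, 181 and 184 CPM in combination libraries 4, 5 and 6, against 626, 600.2 and 74.3 CPM in cisplatin libraries 4, 5 and 6. The combination lay between libraries 4 and 5 on one side and library 6 on the other (log2 fold change -1.15 ± 0.55, adjusted p = 0.407). CBLB502 alone averaged 3.89 CPM and untreated controls 13.1 CPM. Cdkn1a shares exon sequence with 1700023B13Rik, so its reads can be split. Mdm2, the ubiquitin ligase that limits p53, stood at 38.4, 26.4 and 31.6 CPM in the combination, against 60.2, 55.1 and 20.2 CPM with cisplatin alone, and Btg2, an antiproliferative p53 target, at 117, 102 and 78.7 CPM in the combination, against 1066, 793 and 37.04 CPM with cisplatin alone. Of 30 targets, 19 had libraries 4 and 5 above the whole combination, and of these library 6 was below it in 18, inside its range in 1 and above it in 0. Over all genes tested libraries 4 and 5 were above in 4956 of 20341, with library 6 below in 2326 of these. By edgeR 0 of the 30 were called, 0 were higher and 4 lower (against 8% of all genes) at an unadjusted p under 0.05, and DESeq2 called 2 lower (against 3.19%). Without library 6, edgeR called 14 lower (against 10.3% of all genes) and 0 higher (against 12%).

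Stress-induced transcription factors followed. Atf3, a stress-induced repressor, stood at 10.96, 11.3 and 9.44 CPM in the combination, against 180.3, 101 and 4.62 CPM with cisplatin alone, and Klf6, a zinc-finger factor, at 44.7, 65.1 and 58.4 CPM in the combination, against 596, 486 and 29.5 CPM with cisplatin alone. Of 25 AP-1 and immediate early genes, 19 had libraries 4 and 5 above all of the combination, against 4956 of all 20341 genes tested. Library 6 was below it in 15 of the 19, against 2326 of the 4956. The list's median log2 fold change was -1.38, with 0 called by edgeR, 16 lower and 0 higher at an unadjusted p under 0.05, and 9 lower by DESeq2. Without library 6 the median was -1.85, with 18 called lower (against 10.3% of all genes) and 0 higher (against 12%). Dusp1, a phosphatase that turns MAP kinases off, was the member with the combination above in every library, at 68.3, 76.3 and 56.5 CPM in the combination, against 49.96, 53.3 and 50.8 CPM with cisplatin alone. Oxidative stress genes were split by library 6 in the same way. Hmox1, haem oxygenase, stood at 39.4, 37.7 and 48.5 CPM in the combination, against 366, 227 and 23.1 CPM with cisplatin alone, and Gclc, the rate-limiting enzyme of glutathione synthesis, at 176, 149 and 206 CPM in the combination, against 1402, 682 and 142 CPM with cisplatin alone. Of 32 NRF2 and glutathione genes, 0 had non-overlapping groups and 0 were called by edgeR, with 8 lower at an unadjusted p under 0.05 and 3 lower by DESeq2. Without library 6, 11 were called lower (against 10.3% of all genes) and 0 higher (against 12%). Mt1, a metallothionein that binds zinc and other metals, stood at 419, 346 and 336 CPM in combination libraries 4, 5 and 6, against 2721, 3726 and 98.99 CPM in cisplatin libraries 4, 5 and 6, with libraries 4 and 5 above and library 6 below the combination, as for Hmox1 (log2 fold change -2.57 ± 0.81, adjusted p = 0.257). Of 28 genes of regulated cell death, 3 had all combination libraries below all cisplatin libraries (10.7%, against 5.75% of all genes tested) and 1 had them all above (3.57%, against 8.02%). None was called by edgeR (0 of 28), with 8 lower and 0 higher at an unadjusted p under 0.05, and 5 were lower by DESeq2. Mlkl, the pore-forming protein of necroptosis, stood at 0.743, 0.824 and 0.902 CPM in the combination, against 8.06, 7.89 and 1.14 CPM with cisplatin alone, and Cflar, an inhibitor of caspase-8, at 60.97, 50.3 and 61.9 CPM in the combination, against 147, 128 and 63.01 CPM with cisplatin alone.

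**Figure D3:**
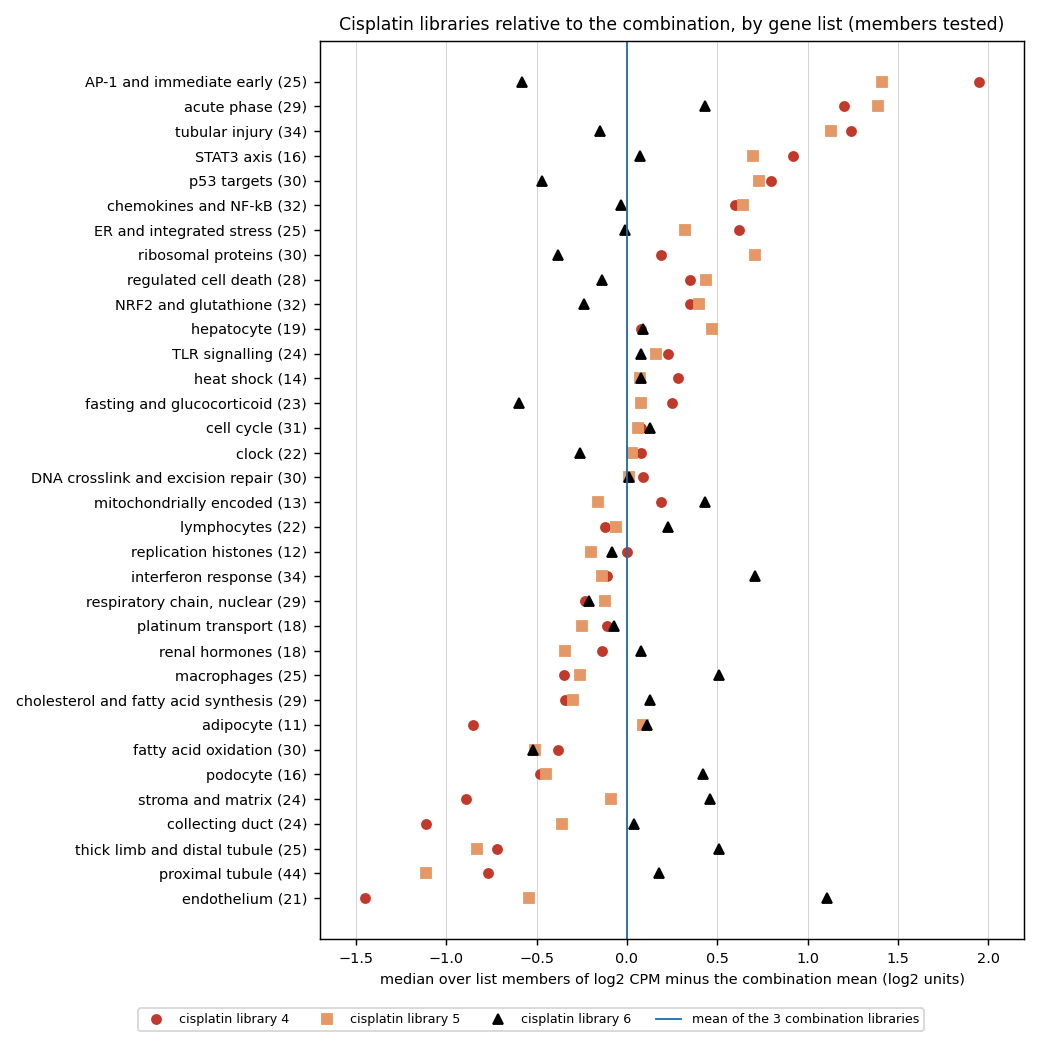
Median position of each cisplatin library relative to the combination, by gene list, with the number of tested members in parentheses. The x axis is the median over members of log2 CPM minus the mean of the 3 combination libraries, which is the line at 0. Libraries 4 and 5 lie to the right for AP-1, acute-phase, injury and p53 lists and to the left for tubule and endothelial lists, while library 6 (triangles) lies at or across the line in most of these, as at -0.47 for p53 targets and 1.11 for endothelium.

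Acute-phase genes were the list with the largest share lower in every combination library, 8 of 29 (27.6%, against 5.75% of all genes tested), and 0 were higher. Saa2, serum amyloid A, stood at 3.66, 1.09 and 0.403 CPM in combination libraries 4, 5 and 6, against 29.1, 28.1 and 13.3 CPM in cisplatin libraries 4, 5 and 6. Its library 6 was between the other cisplatin libraries and the combination (log2 fold change -3.77 ± 0.89, adjusted p = 0.229). Hpx, the haem-binding protein hemopexin, stood at 21.6, 3.39 and 3.45 CPM in the combination, against 32.2, 53.9 and 35.1 CPM with cisplatin alone, and Serpina3n, a protease inhibitor, at 9.35, 4.396 and 5.17 CPM in the combination, against 47.9, 34.4 and 13.4 CPM with cisplatin alone. Saa1 overlapped at 14.1, 42.2 and 16.98 CPM in the combination, against 378, 196 and 16.5 CPM with cisplatin alone, and as Saa1 and Saa2 are near-identical copies, reads could be split between them. The list's median was -0.91. By edgeR 0 were called, with 10 lower and 0 higher at an unadjusted p under 0.05 and 3 lower by DESeq2. Without library 6, 8 were called lower (against 10.3% of all genes) and 0 higher (against 12%). Hepatocyte genes were also in the libraries. The 19 hepatocyte markers summed to 678.9 to 886.3 CPM in the combination, against 717 to 1730 CPM with cisplatin alone. The largest member in cisplatin libraries 4 and 5 was Fgb, which is also on the tubular injury list. It stood at 24.25, 30.5 and 17.5 CPM in the combination, against 914, 636 and 29.03 CPM with cisplatin alone. Alb stood at 141, 41.8 and 60.1 CPM in the combination, against 68.1, 121 and 88.5 CPM with cisplatin alone, and overlapped. The part of hepatocyte genes in the acute-phase values was not tested.

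Chemokine and NF-kB genes were largely split by library 6. Cxcl1, a neutrophil chemokine, stood at 14.3, 41.9 and 19.9 CPM in combination libraries 4, 5 and 6, against 356, 234 and 6.29 CPM in cisplatin libraries 4, 5 and 6 (log2 fold change -2.97 ± 0.97, adjusted p = 0.264). Nfkb1, the p50 precursor, was lower in every combination library, at 10.7, 11.6 and 9.77 CPM in the combination, against 46.2, 25.03 and 12.4 CPM with cisplatin alone, as was Bcl3, its nuclear partner, at 4.602, 5.76 and 2.88 CPM in the combination, against 25.8, 14.1 and 6.05 CPM with cisplatin alone. Of 32 tested, 4 were lower in every combination library (12.5%, against 5.75% of all genes tested) and 0 higher (against 8.02%). The median was -0.78. By edgeR 0 were called, with 16 lower and 0 higher at an unadjusted p under 0.05 and 8 lower by DESeq2. Without library 6, 15 were called lower (against 10.3% of all genes) and 1 higher (against 12%). In the STAT3 list, 3 of 16 were lower in every combination library (18.8%, against 5.75% of all genes tested) and 1 was higher (6.25%, against 8.02%). Osmr, the oncostatin M receptor, stood at 2.72, 5.11 and 3.73 CPM in the combination, against 15.6, 15 and 5.597 CPM with cisplatin alone, and Jak1, a kinase of cytokine receptors, at 56.5, 59.9 and 54.5 CPM in the combination, against 113, 89.6 and 62.4 CPM with cisplatin alone. Socs3, the feedback inhibitor of STAT3, overlapped at 11.5, 19.3 and 11.5 CPM in the combination, against 134, 90.9 and 8.57 CPM with cisplatin alone. By edgeR 0 of the 16 were called, with 8 lower and 0 higher at an unadjusted p under 0.05 and 5 lower by DESeq2.

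Tlr5, the receptor of CBLB502, was close to undetected at 72 h. Raw counts were 8, 0 and 0 in the combination, against 12, 4 and 18 with cisplatin alone, of over 70 M counts in each library, too few for a difference to be read. Of 24 genes of TLR signalling tested, 5 were lower in every combination library (20.8%, against 5.75%) and 2 were higher (8.33%, against 8.02%). By edgeR 0 were called, with 4 lower and 1 higher at an unadjusted p under 0.05, and DESeq2 called 2 lower and 1 higher. Tirap, the adaptor that brings MyD88 to membrane receptors, stood at 3.38, 3.03 and 2.803 CPM in the combination, against 11.3, 10.5 and 4.37 CPM with cisplatin alone (log2 fold change -1.51 ± 0.32, adjusted p = 0.229). Traf6, the ubiquitin ligase downstream of MyD88, stood at 11.1, 8.64 and 10.03 CPM in the combination, against 18.4, 17.8 and 12.7 CPM with cisplatin alone. Myd88 itself overlapped at 16.8, 21.9 and 18.9 CPM in the combination, against 37.2, 32.02 and 16.98 CPM with cisplatin alone. Sigirr, an inhibitory receptor of the pathway, went the other way, at 105, 98.5 and 97.7 CPM in the combination, against 45.1, 49.2 and 82.5 CPM with cisplatin alone (log2 fold change 0.77 ± 0.22, adjusted p = 0.24). The other lower members, Tlr1, Tlr4 and Tlr13, were under 1.5 CPM in all 6 libraries.

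The proximal tubule genes were also split by library 6. Of 44 proximal tubule genes, 33 had libraries 4 and 5 both below all combination libraries, and library 6 was above the combination in 21 of them, inside its range in 4 and below it in 8. Over all genes tested libraries 4 and 5 were below in 5789 of 20341. Library 6 was above in 2326 of these, inside in 1831 and below in 1632. Lrp2, megalin, the endocytic receptor of the proximal tubule, stood at 386, 361 and 361 CPM in combination libraries 4, 5 and 6, against 192, 164 and 635 CPM in cisplatin libraries 4, 5 and 6. Its log2 fold change was 0.16 ± 0.45 (adjusted p = 0.93), and without library 6 it was 1.06 ± 0.28 (adjusted p = 0.0197). Slc22a6, an organic anion transporter, was among the 8 that were higher in every combination library (18.2%, against 8.02% of all genes tested), at 566, 459 and 491 CPM in the combination, against 279, 269 and 380.3 CPM with cisplatin alone. Slc22a2, the organic cation transporter that takes up cisplatin, overlapped at 161, 101 and 124 CPM in the combination, against 91.8, 67.01 and 147 CPM with cisplatin alone. Hnf4a, a transcription factor of proximal tubule identity, overlapped by library 6, at 406, 366 and 398 CPM in the combination, against 208, 149.6 and 378 CPM with cisplatin alone. The list's median was 0.37. By edgeR 0 were called, with 6 higher and 0 lower at an unadjusted p under 0.05 and 2 higher by DESeq2. Without library 6 the median was 0.94, with 23 called higher (against 12% of all genes) and 0 lower (against 10.3%).

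Distal segments showed a similar split. Slc12a1, the sodium-potassium-chloride transporter of the thick limb, stood at 284, 429 and 433 CPM in the combination, against 20.6, 15.5 and 649.5 CPM with cisplatin alone, and library 6 was the highest of the 6 libraries. Umod, uromodulin, stood at 602, 1294 and 1291 CPM in the combination, against 738, 564 and 1397 CPM with cisplatin alone, with the lowest combination library between cisplatin libraries 4 and 5. Umod shares exon sequence with Gm44588. Of 25 thick limb and distal tubule genes, 12 were called higher and 1 lower without library 6, against 12% higher and 10.3% lower of all genes in that setting. With it edgeR called 0, 1 was higher and 3 lower at an unadjusted p under 0.05, and DESeq2 called 3 lower. Trpm6, the magnesium channel of the distal convoluted tubule, was lower in every combination library at 1.903, 4.25 and 2.86 CPM in the combination, against 10.6, 11.1 and 5.94 CPM with cisplatin alone, and Slc12a3, the thiazide-sensitive transporter, at 46.6, 77.5 and 64.7 CPM in the combination, against 87.5, 94.95 and 148 CPM with cisplatin alone. Cldn16, the magnesium-permeable claudin, was higher in every combination library at 12.2, 13.8 and 15.99 CPM in the combination, against 3.54, 4.03 and 11.9 CPM with cisplatin alone. In the collecting duct list of 24 genes, 0 were called by edgeR or DESeq2 and 0 passed an unadjusted p of 0.05, while 5 (against 12% of all genes) were called higher and 0 lower without library 6. Atp6v1b1, a proton pump subunit, stood at 26.7, 24.4 and 27.96 CPM in the combination, against 6.55, 8.13 and 35.5 CPM with cisplatin alone.

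Markers of other cell types were summed in each library, and their part in the results above was not tested. The 25 macrophage markers summed to 40.98 to 86.38 CPM in the combination, against 95.06 to 450.7 CPM with cisplatin alone, without overlap. In cisplatin libraries 4 and 5 most of that sum was Cd14, a lipopolysaccharide co-receptor, at 5.53, 12.7 and 8.94 CPM in the combination, against 412, 258 and 9.17 CPM with cisplatin alone, while Csf1r, the macrophage growth factor receptor, stood at 16.6, 18.8 and 14.8 CPM in the combination, against 6.57, 5.26 and 28.6 CPM with cisplatin alone. The 17 neutrophil markers summed to 0.492 to 2.91 CPM in the combination, against 1.52 to 32.6 CPM with cisplatin alone. S100a8, a calprotectin subunit of neutrophils, stood at 0.0418, 0.326 and 0.115 CPM in the combination, against 2.44, 9.26 and 0.292 CPM with cisplatin alone, and Ly6g was at 0 in all libraries but cisplatin library 4, at 0.0758 CPM. The 24 lymphocyte markers summed to at most 6.10 CPM in the combination, against 9.82 CPM with cisplatin alone, with Cd3e at 0 in all 6 libraries. The 21 endothelial markers summed to 98.77 to 249.8 CPM in the combination, against 105.9 to 376.5 CPM with cisplatin alone, while the 24 stromal markers summed to 202.2 to 283.7 CPM in the combination, against 252 to 348.2 CPM with cisplatin alone. In both lists library 6 was the highest of the 6 libraries. The 11 adipocyte markers summed to 280.9 to 518.4 CPM in the combination, against 426.6 to 548.5 CPM with cisplatin alone. The 8 erythroid markers summed to 38.42 to 44.75 CPM in the combination, against 28.83 to 35.96 CPM with cisplatin alone. Most of that sum was Bpgm, which overlapped between the groups. It stood at 42.2, 31.3 and 35.6 CPM in the combination, against 27.2, 27.6 and 34.2 CPM with cisplatin alone.

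**Figure D4:**
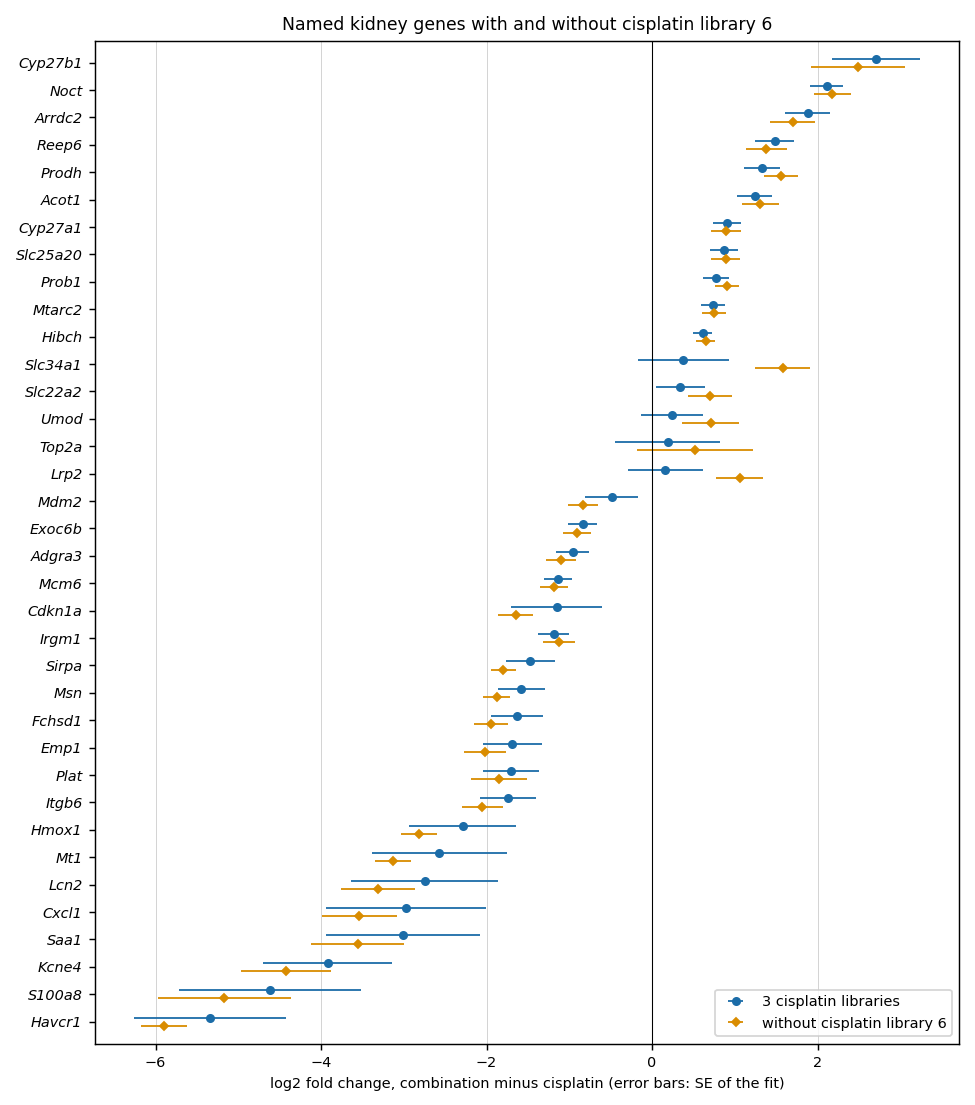
Log2 fold changes of the named kidney genes, combination minus cisplatin, with the SE of the fit as error bars, with all 3 cisplatin libraries (blue circles) and without cisplatin library 6 (orange diamonds). Positive values are higher in the combination. Noct is at 2.11 and 2.18, whereas Lrp2 is at 0.16 with library 6 and 1.06 without it. Tlr5 is left out, since it was not tested without library 6.

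Ribosomal protein genes also followed library 6. Rpl10a, of the large subunit, stood at 343, 358 and 329 CPM in the combination, against 522, 664 and 265 CPM with cisplatin alone. Of 30 tested, 19 had libraries 4 and 5 above all combination libraries, against 4956 of all 20341 genes tested. In each of the 19, library 6 was below all combination libraries, against 2326 of the 4956. With library 6, 0 were called by edgeR or DESeq2 and 0 passed an unadjusted p of 0.05. Without it edgeR called 11 lower (against 10.3% of all genes) and 0 higher (against 12%). Endoplasmic reticulum stress genes were mixed. Of 25, 4 were lower in every combination library (16%, against 5.75% of all genes tested) and 1 was higher (4%, against 8.02%). Among the 4 was Hspa5, the chaperone BiP, at 308, 273 and 246 CPM in the combination, against 462, 326 and 311 CPM with cisplatin alone. The higher member was Herpud1, a component of protein degradation in the endoplasmic reticulum, at 269, 302 and 302 CPM in the combination, against 159.8, 124 and 262 CPM with cisplatin alone. By edgeR 0 were called, with 2 higher and 7 lower at an unadjusted p under 0.05. Without library 6, 2 were called higher (against 12% of all genes) and 10 lower (against 10.3%). In the list of cholesterol and fatty acid synthesis 5 of 29 were lower in every combination library (17.2%, against 5.75% of all genes tested) and 2 were higher (6.9%, against 8.02%). Lower was Fdps, of cholesterol synthesis, at 9.66, 10.9 and 8.31 CPM in the combination, against 24.3, 16.8 and 11.03 CPM with cisplatin alone. Higher was Insig1, which restrains that synthesis, at 35.4, 33.2 and 38.6 CPM in the combination, against 20.96, 16.7 and 17.2 CPM with cisplatin alone. By edgeR 0 were called, with 3 higher and 4 lower at an unadjusted p under 0.05. Without library 6, 8 were called higher and 4 lower. DNA crosslink and excision repair genes gave 1 of 30 higher and 1 lower in every library (3.33% each), below the shares over all genes. Over all 20341 genes tested, libraries 4 and 5 were both above the combination in 4956 genes, and library 6 was above it in 1170 of these and below it in 2326. They were both below it in 5789 genes, with library 6 below in 1632 and above in 2326.

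The same comparison in liver was set beside that in kidney in a fit of all 24 libraries. The difference between the organs passed the threshold for 208 of 21570 genes (0.964%). Of these, 144 had a higher log2 fold change in kidney than in liver and 64 a lower one. A gene can be among the 208 with little change in kidney. Mrpl41, the gene with the lowest p, was at -0.04 in kidney and -1.71 in liver. None of the genes named by the rule was among the 208, and the lowest adjusted p of the difference among the named genes was 0.146, for Mdm2. Of the other genes described above, Tyms and Sgk1 were among the 208. Tyms was at 0.86 in kidney and -0.91 in liver (adjusted p of the difference 0.0171), and Sgk1 at 0.90 in kidney and -1.05 in liver (0.0184). Noct stood at 79.99, 102 and 68.3 CPM in the liver combination, against 12.2, 15.2 and 32.5 CPM in liver cisplatin libraries 1, 2 and 3. Its log2 fold change in liver was 2.06 ± 0.32 (adjusted p = 0.00113), and the difference of kidney from liver was 0.04 ± 0.44 (adjusted p = 1). Arrdc2 was at 1.57 ± 0.47 in liver (adjusted p = 0.0441) and Reep6 at 1.71 ± 0.43 (adjusted p = 0.0189), both in the kidney's direction. Arrdc2 stood at 16.9, 16.5 and 15.7 CPM in the liver combination, against 2.50, 2.23 and 11.7 CPM in liver cisplatin libraries 1, 2 and 3. Reep6 stood at 710.5, 627 and 727 CPM, against 70.1, 143 and 417 CPM. In both, as in Noct, liver cisplatin library 3 lay nearest to the combination. Other named genes that passed in liver, in the kidney's direction, included Prob1, Msn, Saa1, Hmox1 and S100a8. Saa1 nevertheless overlapped in liver, with liver cisplatin library 3 inside the combination's range. It stood at 364, 644 and 180 CPM in the liver combination, against 36190, 14450 and 248 CPM with cisplatin alone. Irgm1 was at 0.26 ± 0.33 in liver (adjusted p = 0.732), with a difference of -1.45 ± 0.47 (adjusted p = 0.148). Havcr1 was nearly absent from liver, at 0.481, 0 and 0 CPM in the liver combination, against 0.497, 0.358 and 0 CPM in liver cisplatin libraries 1, 2 and 3.

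**Figure D5:**
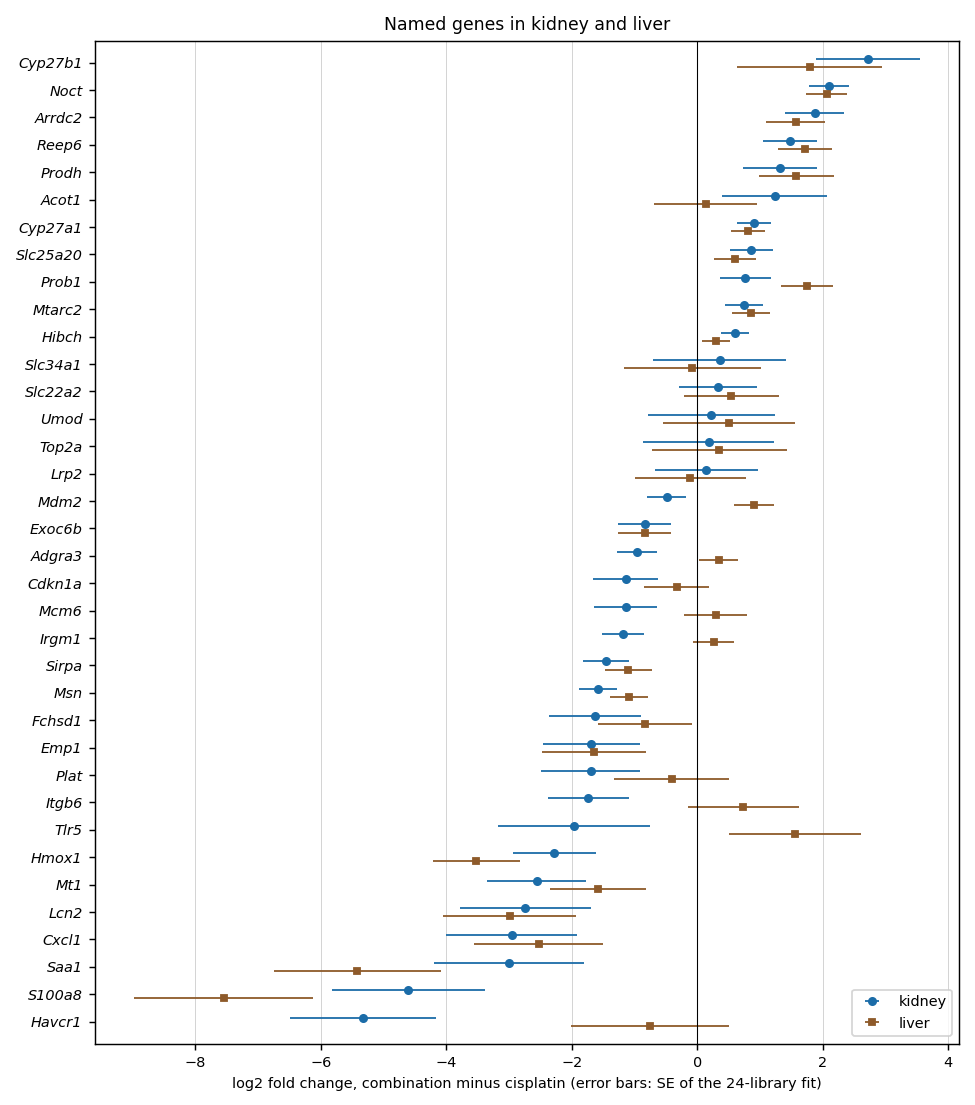
Log2 fold changes of the named genes, combination minus cisplatin, in kidney (blue circles) and liver (brown squares), from the fit of all 24 libraries, with SE as error bars. Noct lies at 2.10 in kidney and 2.06 in liver, and Mdm2 lies below 0 in kidney and above 0 in liver. Genes at 0 in a whole liver group are left out.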

How the data were processed

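The authors deposited 1 table with raw counts and FPKM for each of 24 libraries and 33272 genes, per the file headers. Of tools, the submitters' processing notes mention FastQC and cutadapt 1.9. Which aligner, counter, strand setting, build and annotation were used is not given in the sources used here. Of the gene IDs, 33156 (99.65%) were found on the same chromosome in GENCODE vM21 (GRCm38). Only the deposited counts were used. The 24 FPKM columns were not. Treated kidney columns are numbered 4 to 6 where the labels use 1 to 3, so columns were tied to groups only and libraries are named by column number.

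Counts of the 12 kidney libraries were fitted together with edgeR 4.0.16 (R 4.3.3): filterByExpr, TMM scaling, quasi-likelihood test, Benjamini-Hochberg adjustment over all genes tested and a threshold of 0.05. CPM use TMM-scaled library sizes, folds are ratios of group mean CPM, and list positions use log2(CPM + 0.5). Counting without strand can mix overlapping genes, and 66 symbols stand on several IDs. Named genes are the 12 highest and 12 lowest by size among called genes with non-overlapping groups and at least 5 CPM, filled up by lowest p, up to 3 called members per list, and Cdkn1a, Mdm2, Havcr1, Lcn2, Slc22a2, Slc34a1, Lrp2, Umod, Tlr5, Saa1, Cxcl1, Hmox1, Mt1, S100a8 and Top2a. The 38 lists (878 of 882 genes in the table) and these rules were chosen with earlier results of these data known. No list was given a test. Of the named genes and list members, a few are counted but not reported here. Alternatives were other scaling, no filter, fewer libraries, removal of mitochondrial reads, a replicate block, DESeq2 1.42.0, limma-voom 3.58.1 with sample weights, and leaving out each library. No 2 libraries of a group agreed within sampling noise.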

Additional observations from a re-analysis of the deposited data

Results flagged for a closer look

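The combination minus cisplatin difference was not the same in kidney and liver for 208 genes by edgeR's test of that difference (adjusted p under 0.05 over 21570 genes). This count rests on single libraries: it was 1591 without liver cisplatin library 3, 721 without kidney cisplatin library 6 and 0 without kidney combination library 5.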

How the results depend on the processing

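For the combination against cisplatin in kidney, 1 gene higher and 0 lower also came from relative log expression scaling, from no filter on low counts and from removal of mitochondrial reads. With the 6 libraries alone 0 genes were called, 0 higher (Noct adjusted p = 0.567), and with the 9 treated libraries also 0, 0 higher (0.0643). DESeq2 called 623, 178 higher and 445 lower, among 13939 genes to which it gave an adjusted p. Limma-voom with sample weights, which gave cisplatin library 6 a weight of 0.1, called 4042, 1935 higher and 2107 lower. Leaving out each library gave 0 to 4679 called, 0 to 2516 higher and 0 to 2163 lower. The count was 0 without cisplatin library 4 or 5, where Noct missed the threshold, 2 without combination library 4 or 6, and 4679 without cisplatin library 6. That last setting in 5 libraries alone, added after seeing the data, called 4916, 2424 higher and 2492 lower. The cause was not tested. The replicate block called 2, both higher: Noct (adjusted p = 0.0082) and Gm20716. Same-numbered libraries correlated at 0.11, 0 and 0.09 in their deviations, so the numbers were not taken to pair them. Among values of single named genes, 433 kept direction and side of the threshold, 123 passed it only under the alternative and 4, all of Noct, only in the main setting. Some turned sign: Slc34a1 was at -0.04 without cisplatin library 5, Lrp2 at -0.11 without library 4 and -0.21 without library 5, Umod at -0.05 without library 5, and Top2a at -0.61 without combination library 4 and -0.10 without cisplatin library 5. Their highest values were 1.58, 1.06 and 0.71 for Slc34a1, Lrp2 and Umod, without cisplatin library 6, and 0.53 for Top2a, without combination library 6. For the difference of kidney from liver, called, higher and lower counts were 117, 89 and 28 without a filter and 2, 1 and 1 in the 12 libraries of the 4 groups. Leaving out single libraries gave 0 to 1591 called, 0 to 698 higher and 0 to 893 lower. Depth limits genes of a few counts such as Tlr5, which could not be read.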
